A study of Mus musculus with 22 samples.

Results

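The cell cycle genes described here are 45 genes of the 21363 listed in the deposited table for mouse lumbar dorsal horn. They were chosen by their role in the cycle and by no threshold on a measured value: 28 act in mitosis, 12 in S phase and 5 in G1 or at the G1/S step. The gene names of the table matched 44 of the 45, and Knl1 was found by its identifier (ENSMUSG00000027326), under the older name Casc5. RNA was taken from sorted nuclei, 5000 per sample, of pDyn-Sun1-GFP mice, in which the promoter of prodynorphin, an opioid peptide gene, drives Sun1, a nuclear envelope protein, fused to GFP. The labels call the GFP+ nuclei pDyn-lineage spinal nuclei, and they do not say whether a nucleus had used the promoter in the past or at the time of collection. All animals carried the transgene, and each animal gave a GFP+ and a GFP- sample. The GFP+ groups were P7 (postnatal day 7, 4 libraries), P21 (3 libraries) and P80 (4 libraries), and the GFP- groups were P7 (4 libraries), P21 (3 libraries) and P80 (4 libraries). GFP- nuclei are the rest of the dorsal horn and hold glia, vessel cells and the other neurons. Library names (ES1 to ES24) are those of the deposited columns. The deposited sheets that hold a column tie it to an age and a population, but nothing ties it to an animal or a sex.

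Dividing cells copy their DNA in S phase and separate the copies in mitosis. Cyclin D with Cdk4 or Cdk6 and cyclin E with Cdk2 release E2F transcription factors, which switch on the replication genes. A later wave driven by the MuvB complex with B-Myb and FoxM1 switches on the mitotic genes, many of which carry a promoter element called the cell cycle genes homology region (CHR). Neurons of the dorsal horn are born before birth and no longer divide, whereas oligodendrocyte precursors, astrocytes, microglia and vessel cells go on dividing for some time afterwards. Replication genes also serve DNA repair outside a running cycle, so S phase genes and mitotic genes were read apart.

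Promoters were searched for motifs of these waves. RefSeq promoters (GRCm38.p6, 250 bases before to 50 bases after the start, 300 in all) were found for 36 of the 45 genes, and both strands were searched for the CHR (TTTGAA or TTCGAA), for CCAAT, and for E2F cores (TTCCCGC or TTCGCGC or TTGCCGC or TTGGCGC). On the other strand CCAAT reads ATTGG, which can overlap TTGGCGC. Counts are of genes, and a gene with more than 1 promoter counted when any of them matched. A CHR match was found for 21 of 24 mitotic genes (87.5%), for 1 of 10 S phase genes (10%, Mcm2) and for 21.7% of the 27025 genes with a promoter. Of the mitotic genes, 20 had it within 50 bases of the start, and of the S phase genes 0 did. CCAAT was found for 19 of 24 mitotic genes (79.2%), for 9 of 10 S phase genes (90%) and for 41.1% of all genes with a promoter. An E2F core was found for 6 of 24 mitotic genes (25.0%), for 8 of 10 S phase genes (80.0%) and for 10.9% of all. CHR and CCAAT stood together in a promoter of 17 of 24 mitotic genes (70.8%), against 8.61% of all. Neither of the 2 G1 and G1/S genes with a promoter held any of these motifs. These are matches of letters and not shown binding sites.

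The promoters printed next are those of the 3 mitotic and the 2 S phase genes in the table with the smallest p for the change between P80 and P7 in GFP- nuclei. Each runs from 240 bases before to 30 bases after the start, 5′ to 3′ on the gene's strand, with the CHR, CCAAT and E2F letters in capitals. Mki67 (ENSMUSG00000031004) encodes Ki-67, which coats mitotic chromosomes, and its promoter (chr7:135716350-135716619, minus strand) has CHR matches 116 and 98 bases before the start. Bases after this start were found in 0 GENCODE transcripts of Mki67, against 1 to 3 for the other genes printed. The start of Mki67 and these distances are therefore uncertain. Aspm organises spindle poles, and its promoter (chr1:139454533-139454802, plus strand) has a CHR match 7 bases after the start. Knl1 is the scaffold of the outer kinetochore (chr2:119046879-119047148, plus strand), and its CHR match, 32 bases after the start, lies just past the stretch shown. Brca1, a repair gene (chr11:101551926-101552195, minus strand), and Rrm2, a subunit of ribonucleotide reductase (chr12:24708014-24708283, plus strand), have CCAAT and E2F letters and no CHR.
Mki67: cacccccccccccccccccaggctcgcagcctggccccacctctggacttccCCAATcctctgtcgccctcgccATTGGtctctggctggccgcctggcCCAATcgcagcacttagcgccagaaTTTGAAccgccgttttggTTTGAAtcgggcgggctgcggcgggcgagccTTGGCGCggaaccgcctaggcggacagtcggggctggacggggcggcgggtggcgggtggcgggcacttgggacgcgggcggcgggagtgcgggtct
Aspm: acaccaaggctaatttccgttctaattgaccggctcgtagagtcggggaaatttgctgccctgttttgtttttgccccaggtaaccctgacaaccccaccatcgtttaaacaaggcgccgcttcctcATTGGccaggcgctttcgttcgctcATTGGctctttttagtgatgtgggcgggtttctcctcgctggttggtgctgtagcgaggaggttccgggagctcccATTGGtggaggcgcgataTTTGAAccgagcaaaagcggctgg
Knl1: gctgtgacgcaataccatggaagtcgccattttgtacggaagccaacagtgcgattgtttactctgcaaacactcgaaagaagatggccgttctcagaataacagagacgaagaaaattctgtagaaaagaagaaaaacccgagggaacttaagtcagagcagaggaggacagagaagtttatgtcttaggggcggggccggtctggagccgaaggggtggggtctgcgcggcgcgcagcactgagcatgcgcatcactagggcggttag
Brca1: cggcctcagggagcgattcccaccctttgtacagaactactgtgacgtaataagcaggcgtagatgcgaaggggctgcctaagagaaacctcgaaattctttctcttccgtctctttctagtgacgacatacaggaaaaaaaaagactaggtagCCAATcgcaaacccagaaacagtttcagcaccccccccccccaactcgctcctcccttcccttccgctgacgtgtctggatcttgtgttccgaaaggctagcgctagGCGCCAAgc
Rrm2: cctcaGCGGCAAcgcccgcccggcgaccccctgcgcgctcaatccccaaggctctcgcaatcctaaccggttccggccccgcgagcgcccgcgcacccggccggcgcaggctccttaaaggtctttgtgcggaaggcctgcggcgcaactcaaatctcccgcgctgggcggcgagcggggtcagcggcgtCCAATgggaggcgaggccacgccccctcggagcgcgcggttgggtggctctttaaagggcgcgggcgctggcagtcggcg

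Values are normalized counts, that is, reads per gene divided by the library's size factor by the authors, and they are not divided by gene length, so genes are not compared with each other by level. Total reads per library ran from 4244987 to 10849169 (median 5359703), and 1 read was worth 0.547 to 1.31 normalized counts. All 45 genes passed the filter (3 or more libraries with values of 10 or more), as did 18614 of the 21363 genes. Only 23 of the 45 were at 10 in all libraries. Pdyn itself lay between 405 and 663 in the GFP+ libraries, against 0 to 15.7 in the GFP- libraries (n = 11 each). The GFP- P21 library ES16 was the deepest and stood apart. It was the highest of its 3 libraries in 41 of the 45 cell cycle genes (26 mitotic, 10 S phase and 5 G1 and G1/S), while it was the highest in 40.2% of all genes tested, and its median ratio to the mean of the other two was 4.12. ES16 also held 633 summed normalized counts of ependymal markers, against 26.7 and 27.8 in the other GFP- P21 libraries, and 4894 of endothelial and mural markers, against 676 and 492. Neuron markers were lowest in the GFP- libraries ES8, ES12 and ES16 (6161, 6756 and 6639).

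A group mean lay under 10 normalized counts in 15 of the 45 genes. Among mitotic genes these were Aurka, Aurkb, Bub1, Ccnb1, Cdk1, Kif11, Kif20b, Kif23, Kif4 and Top2a, among S phase genes Mcm2, Mcm3, Mcm5 and Rrm2, and among G1 and G1/S genes E2f1. Aurkb, Ccnb1 and Cdk1 reached 10 in no GFP+ library of any age, so they passed the filter through GFP- libraries. Fold changes are differences of log2(value + 1) and understate the change of such low genes. Reads of some genes could have been split or shared, so their values are uncertain. In the GENCODE mouse annotation Kif4, Ccna2, Nusap1, Prc1, Ncapg, Pola1, Ccnd1, Ccnd2 and Ccne2 (9 genes) overlap another gene of the table. Kif4, Ccnb1, Ccnb2 and Pcna (4 genes) have named pseudogenes there.

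At P7, mitotic genes were lower in GFP+ nuclei than in GFP- nuclei. The drop was significant for 22 of the 28 (limma, two-sided, adjusted p under 0.05 over all genes tested), where 10.1% of all genes tested were lower. The groups of 4 did not overlap, with GFP+ lower, in 25 of the 28, against 15.7% of all genes. The median log2 fold change was -1.95 over the mitotic genes and 0.01 over all genes tested, and the median GFP+ mean was 26.6% of the GFP- mean. Mki67 had 209, 123, 175 and 148 normalized counts in the GFP+ libraries, against 984, 1874, 1017 and 936 in the GFP- libraries. Every GFP+ library was below every GFP- library, and the log2 fold change was -2.83 ± 0.40 (adjusted p = 4.40e-05), where ± gives the standard error, as it does for all fold changes below. Top2a (ENSMUSG00000020914), the topoisomerase that untangles sister DNA, had 81.8, 27.2, 56.4 and 43.7 in GFP+ nuclei, against 269.9, 440.4, 310.5 and 307 in GFP- nuclei. Again the groups did not overlap, with a log2 fold change of -2.73 ± 0.53 (adjusted p = 0.00105).

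Among genes of spindle motors and spindle poles, Kif11, the kinesin that pushes spindle poles apart, had 31.8, 17.3, 30.6 and 26.6 in GFP+ nuclei, against 134, 201, 146 and 184 in GFP- nuclei, a log2 fold change of -2.62 ± 0.43 (adjusted p = 0.000193). The GFP+ mean was 15.98% of the GFP- mean. Aspm had 51.1, 30.5, 58.8 and 35.1 in GFP+ nuclei, against 194, 329.9, 235 and 214 in GFP- nuclei, a log2 fold change of -2.46 ± 0.38 (adjusted p = 9.50e-05). Kif20b, a kinesin of late mitosis, differed by -2.48 ± 0.41 (adjusted p = 0.000188). Kif15, which can share the work of Kif11, was the mildest of these motors, with 97.7, 83.96, 82.1 and 99.97 in GFP+ nuclei, against 166, 238, 196 and 196 in GFP- nuclei and a log2 fold change of -1.12 ± 0.20 (adjusted p = 0.000517). None of these groups overlapped.

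Among genes of the kinetochore and of chromosome structure, Knl1 had 61.3, 43.6, 61.3 and 24.2 in GFP+ nuclei, against 232, 240.4, 184 and 203 in GFP- nuclei, a log2 fold change of -2.23 ± 0.34 (adjusted p = 7.65e-05). Ncapg, a condensin subunit that compacts chromosomes, had 55.7, 34.6, 73.5 and 32.02 in GFP+ nuclei, against 151, 194, 182 and 179 in GFP- nuclei, a log2 fold change of -1.90 ± 0.27 (adjusted p = 4.39e-05), the smallest p of the 28. The core condensin subunits had smaller differences: Smc4 had 89.7, 94.7, 82.1 and 73.4 in GFP+ nuclei, against 265, 391, 205 and 241 in GFP- nuclei, and Smc2 had 139.7, 141, 135 and 112 in GFP+ nuclei, against 218, 261, 192 and 176 in GFP- nuclei. Both pairs of groups stood apart, with log2 fold changes of -1.65 ± 0.32 (adjusted p = 0.00102) for Smc4 and -0.67 ± 0.22 (adjusted p = 0.0412) for Smc2. Prc1, which bundles the microtubules of the spindle midzone, was the mildest called gene, with 277, 209.9, 229 and 228 in GFP+ nuclei, against 336, 411, 296 and 340.1 in GFP- nuclei and a log2 fold change of -0.54 ± 0.15 (adjusted p = 0.0116).

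Cdk1 (ENSMUSG00000019942), the kinase that starts mitosis, had 5.68, 3.29, 4.90 and 5.47 in GFP+ nuclei, against 41.6, 49.2, 25.6 and 42.5 in GFP- nuclei, a log2 fold change of -2.79 ± 0.81 (adjusted p = 0.0201). All 4 GFP+ libraries were under 10 normalized counts. Cdk1, Aurkb and Ccnb1 are among the 22 called genes and passed the filter through GFP- libraries alone, so their calls are not separate support. Anln (ENSMUSG00000036777) encodes anillin, a scaffold of the cytokinetic ring that is also known as a protein of central myelin in mice. It had 40.9, 37.04, 77.2 and 60.9 in GFP+ nuclei, against 164, 294, 236 and 202 in GFP- nuclei, a log2 fold change of -2.06 ± 0.38 (adjusted p = 0.000649). The other called genes, namely Tpx2, Bub1, Cenpf, Aurkb, Kif23, Ect2, Cenpe, Kif4 and Ccnb1, ranged from -2.72 ± 0.88 for Kif4 to -1.19 ± 0.38 for Cenpe. Bub1b, Aurka, Nusap1, Ccna2, Plk1 and Ccnb2 did not pass, with log2 fold changes between -1.53 ± 1.27 and -0.25 ± 0.36. Among the GFP- P7 libraries ES20 was the highest in Mki67 and in oligodendrocyte precursor, oligodendrocyte, astrocyte and microglia markers. Without ES20 14 of the 28 passed, where 7.54% of all genes were lower. Prc1, Cdk1, Kif23, Ect2, Cenpe, Kif4, Smc2 and Ccnb1 no longer did, with adjusted p-values of 0.0568 for Prc1, 0.0588 for Cdk1 and 0.139 for Smc2. Leaving out ES19 also ended the call of Cdk1 (adjusted p = 0.0537), and Smc2 was lost when any 1 of 8 libraries was left out. Ccnb1 was lost when any 1 of 10 was, Ect2 of 6, and Cenpe and Kif4 of 5 each. edgeR did not call Kif4 or Ccnb1 (adjusted p = 0.0606 and 0.0599), nor did DESeq2 call Ccnb1 (adjusted p = 0.059). With only the compared groups in the limma fit Kif4 did not pass (adjusted p = 0.0687).

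**Figure D1:**
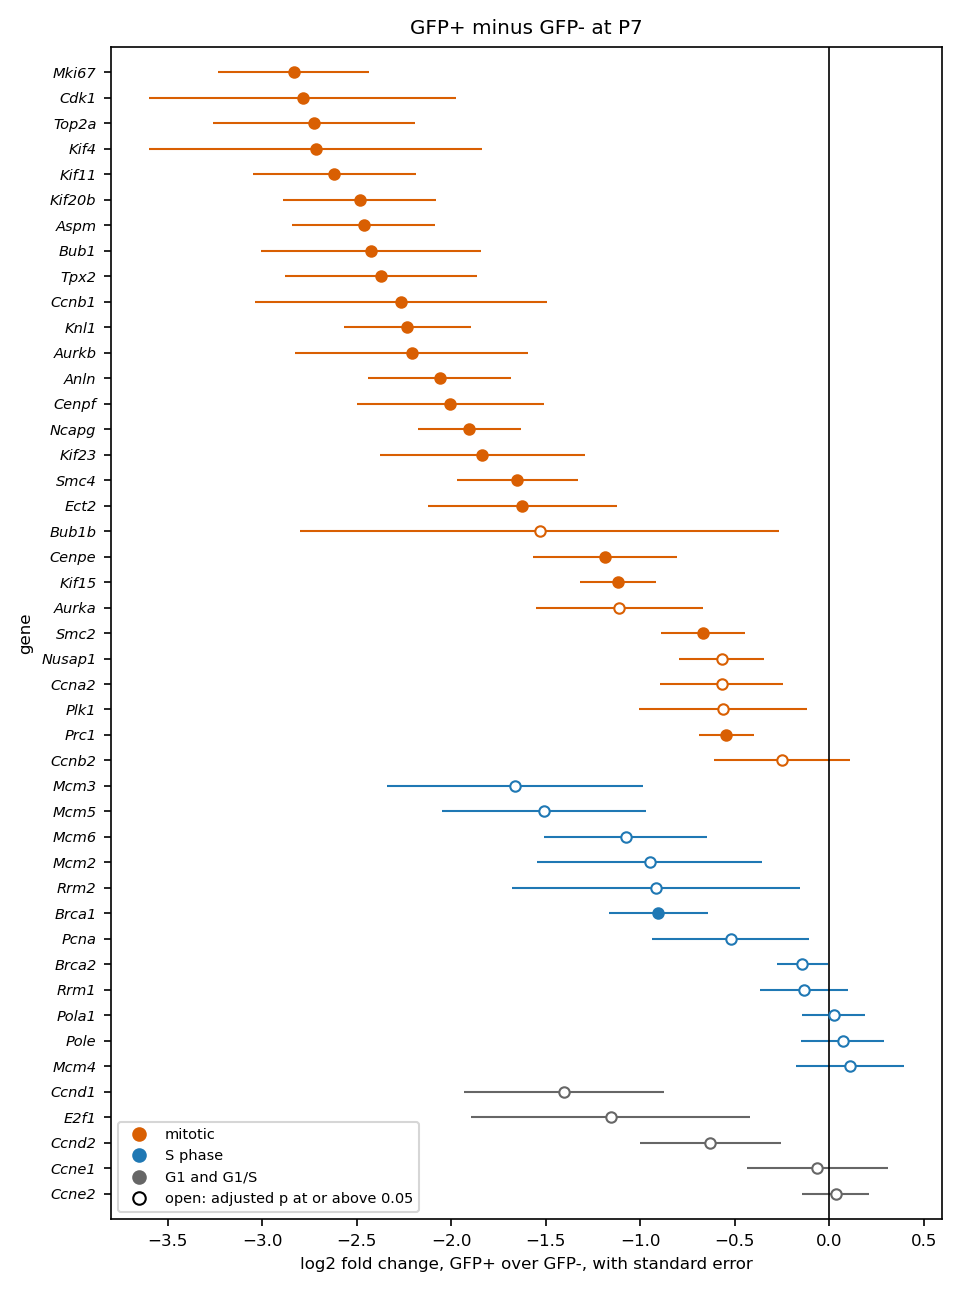
Log2 fold change of each of the 45 genes at P7, GFP+ over GFP-, with its standard error, ordered by size within mitotic, S phase and G1 and G1/S genes. Filled points have an adjusted p under 0.05: 22 mitotic genes and Brca1 are filled, and all 28 mitotic points lie left of 0.

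Of the 12 S phase genes 1 was lower in GFP+ nuclei at P7, where 10.1% of all genes tested were lower. This count depended on the fit, in which 3203 genes were called in all. With only the compared groups in it 6 of the 12 were called, beside 5154 genes in all. Without the P21 library ES16 4 were called, beside 4138 in all. Without ES8, ES12 and ES16 5 were, beside 5618 in all. The groups did not overlap, with GFP+ lower, in 6 of the 12, against 15.7% of all genes. The median log2 fold change was -0.71, and the median GFP+ mean was 61.4% of the GFP- mean. Brca1 had 57.9, 51.9, 49.03 and 46.1 in GFP+ nuclei, against 84.1, 111, 88.7 and 104 in GFP- nuclei, a log2 fold change of -0.90 ± 0.26 (adjusted p = 0.0185). The groups did not overlap, but the call was lost without ES23 or ES20 (adjusted p up to 0.0623). Pole (ENSMUSG00000007080), the catalytic subunit of DNA polymerase epsilon, had 208, 217, 218 and 207 in GFP+ nuclei, against 212, 209.7, 207 and 182 in GFP- nuclei. These groups overlapped, and the log2 fold change was 0.07 ± 0.22 (adjusted p = 0.88). Pola1, of the polymerase that lays down primers, had 235, 196, 272 and 220.2 in GFP+ nuclei, against 275, 209, 243 and 185 in GFP- nuclei (0.02 ± 0.17 on the log2 scale). Rrm1, the large subunit of ribonucleotide reductase, had 202, 216, 191 and 155 in GFP+ nuclei, against 222, 215, 256 and 153 in GFP- nuclei (-0.13 ± 0.23). Brca2, a recombination repair gene, had 346, 309, 344 and 284 in GFP+ nuclei, against 331, 366, 343 and 376 in GFP- nuclei (-0.14 ± 0.13). Each of these last groups overlapped, and none of them passed. None of the 5 genes of the replicative helicase passed. Mcm3 differed by -1.66 ± 0.68 (adjusted p = 0.0968), Mcm5 by -1.51 ± 0.54 (adjusted p = 0.0585), Mcm6 by -1.08 ± 0.43 (adjusted p = 0.0927), Mcm2 by -0.95 ± 0.60 (adjusted p = 0.313) and Mcm4 by 0.11 ± 0.29 (adjusted p = 0.854). The GFP+ libraries were below the GFP- libraries in each of these but Mcm4, whose groups overlapped. Mcm6 had 67.02, 62.6, 46.6 and 68.7 in GFP+ nuclei, against 120.2, 142, 116 and 139 in GFP- nuclei, so that its groups stood apart although its test, which used the spread of all 6 groups, did not pass.

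Of the 5 G1 and G1/S genes, limma called 0 at P7, where 10.1% of all genes tested were lower, and 1 had an unadjusted p under 0.05. edgeR called 0 and DESeq2 called 1. Ccnd1, cyclin D1, which carries growth signals into the cycle, had 52.3, 48.6, 74.8 and 46.9 in GFP+ nuclei, against 157, 145, 127 and 157 in GFP- nuclei. Its groups did not overlap, and the log2 fold change was -1.40 ± 0.53 (adjusted p = 0.0748). Ccnd2, cyclin D2, had 87.5, 105, 98.1 and 105 in GFP+ nuclei, against 189, 192, 122 and 123 in GFP- nuclei (-0.63 ± 0.37 on the log2 scale). Ccne2, cyclin E2, had 127, 161, 142 and 115 in GFP+ nuclei, against 139, 168, 109 and 119.97 in GFP- nuclei, with overlapping groups (0.03 ± 0.18).

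**Figure D2:**
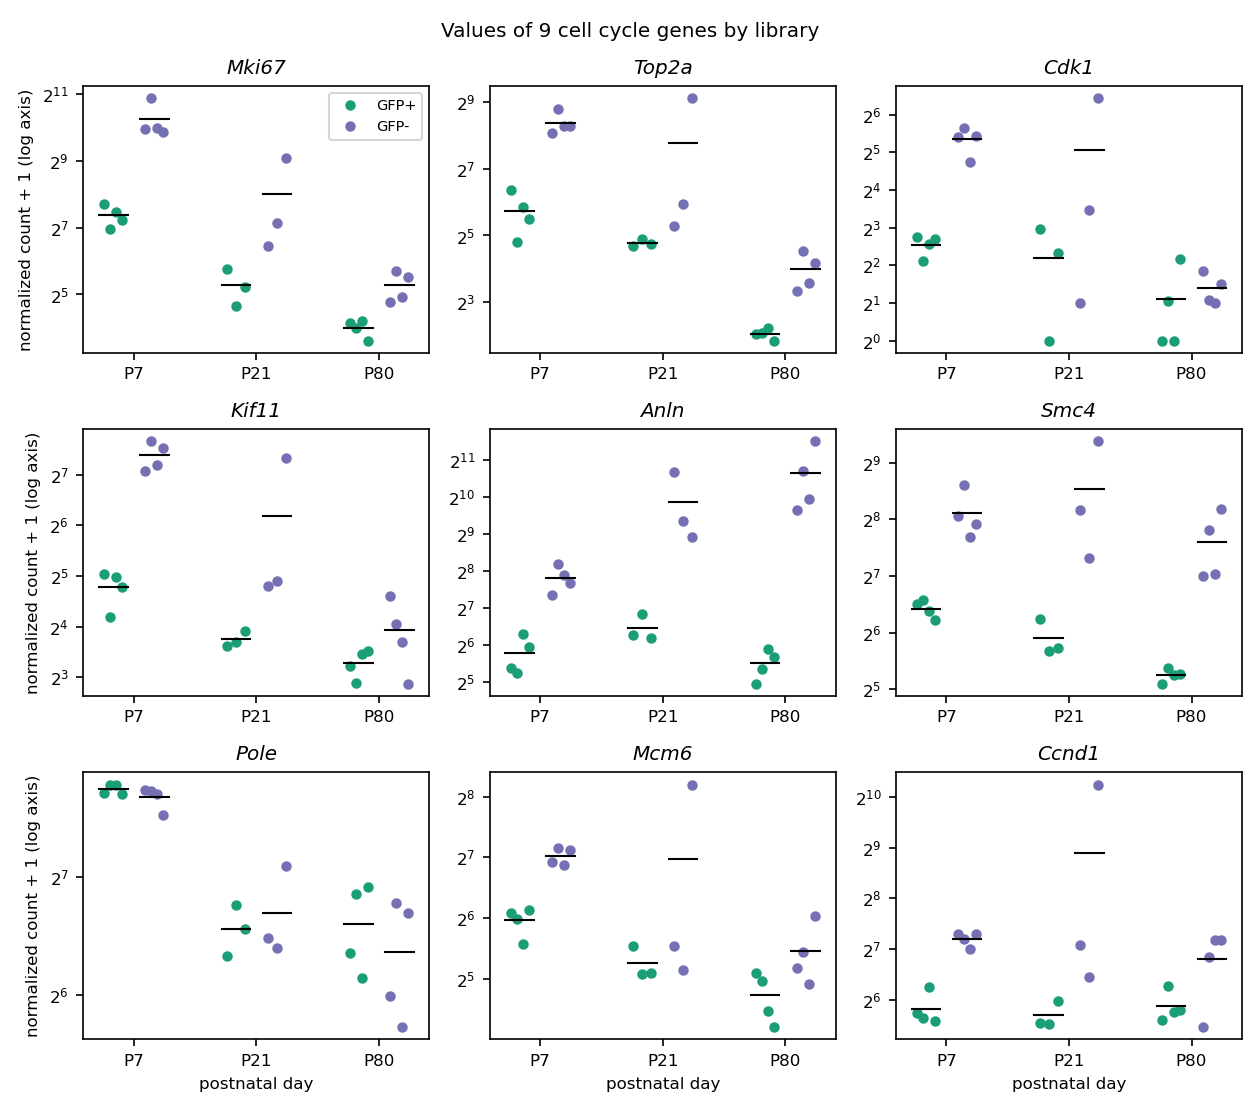
Normalized count + 1 (log2 axis) of 9 cell cycle genes in each of the 22 libraries, GFP+ and GFP- at P7, P21 and P80, with bars at the group means. Mki67 and Top2a come down with age in both populations, Anln is higher at P80 than at P7 in GFP- libraries, and the GFP- P21 library ES16 lies above the others of its group in each of the 9 genes but Anln.

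At P21, 14 of the 28 mitotic genes were lower in GFP+ nuclei, where 18.3% of all genes tested were lower. This count depended on the fit. With only the compared groups in it 4 were lower (Anln, Smc4, Ncapg and Mki67), where 8.21% of all genes were, and without the GFP- libraries ES8, ES12 and ES16 5 were (those and Aspm), where 8.75% of all genes were. In the fit of all groups Anln had 76.05, 113 and 72.2 in GFP+ nuclei, against 1645, 649.9 and 479 in GFP- nuclei, a log2 fold change of -3.22 ± 0.44 (adjusted p = 1.89e-05). Smc4 had 74.9, 50.4 and 52.1 in GFP+ nuclei, against 287, 158 and 665 in GFP- nuclei, a log2 fold change of -2.40 ± 0.37 (adjusted p = 6.13e-05). Mki67 had 53.3, 24.1 and 36.1 in GFP+ nuclei, against 87.2, 139 and 546 in GFP- nuclei, a log2 fold change of -2.35 ± 0.46 (adjusted p = 0.000576). The groups stood apart in all of these. With GFP+ lower they did so in 10 of the 28 mitotic genes and in 3891 of the 18614 genes tested. The third GFP- value, from ES16, was the highest for Smc4 and Mki67 and the lowest for Anln. Ncapg differed by -1.64 ± 0.31 (adjusted p = 0.000429), Kif20b by -2.04 ± 0.47 (adjusted p = 0.00215), Kif11 by -1.93 ± 0.50 (adjusted p = 0.00496), Knl1 by -1.39 ± 0.39 (adjusted p = 0.00847) and the checkpoint kinase gene Bub1 by -2.40 ± 0.67 (adjusted p = 0.00877). The remaining called genes, Cenpe, Top2a, Ect2, Aspm, Aurkb and Tpx2, lay between -2.15 ± 0.71 and -1.33 ± 0.44. Aurkb passed the filter through GFP- libraries alone, so its call is not separate support.

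In Top2a and Cdk1 the GFP- P21 libraries lay far apart. Top2a had 24.97, 28.5 and 26.1 in GFP+ nuclei, against 37.6, 60.7 and 554 in GFP- nuclei, and Cdk1 had 6.81, 0 and 4.01 in GFP+ nuclei, against 0.991, 10.1 and 85.9 in GFP- nuclei. Without ES16, 7 of the 28 mitotic genes passed at P21, where 15.3% of all genes were lower, namely Anln, Smc4, Ncapg, Mki67, Kif20b, Kif11 and Knl1, with log2 fold changes from -3.585 for Anln to -1.105 for Kif11. Mki67 was then at -1.588 (adjusted p = 0.00188), and Top2a at -0.8302 (adjusted p = 0.118) and Bub1 at -1.536 (adjusted p = 0.0784) did not pass. Knl1 was also lost without ES11 (adjusted p = 0.0677). Prc1 had 185, 172 and 184 in GFP+ nuclei, against 205, 185 and 248 in GFP- nuclei, and Smc2 had 117, 82.1 and 139 in GFP+ nuclei, against 94.1, 137 and 254 in GFP- nuclei. Both of these overlapped.

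Among S phase genes at P21, Mcm5 (-2.24 ± 0.63, adjusted p = 0.00878) and Mcm3 (-2.59 ± 0.78, adjusted p = 0.014), both subunits of the replicative helicase, were lower in GFP+ nuclei. That is 2 of the 12, where 18.3% of all genes tested were lower. With only the compared groups in the fit 0 of the 12 were lower, where 8.21% of all genes were. Mcm3 had 9.08, 5.48 and 5.01 in GFP+ nuclei, against 31.7, 13.9 and 175 in GFP- nuclei. Without ES16 neither passed (adjusted p = 0.112 for Mcm3 and 0.0764 for Mcm5), and Mcm5 was also lost without ES13 (adjusted p = 0.0517). Of the 5 G1 and G1/S genes 1, Ccnd1, was lower, where 18.3% of all genes tested were lower. Ccnd1 had 45.4, 44.9 and 62.1 in GFP+ nuclei, against 134, 85.98 and 1211 in GFP- nuclei, a log2 fold change of -2.24 ± 0.61 (adjusted p = 0.00799). Without ES16 it was at -1.079 (adjusted p = 0.0312). Ccnd2 had 125, 129 and 141 in GFP+ nuclei, against 114, 138 and 798 in GFP- nuclei, and its high value was again ES16. Pole, Brca2, Pola1, Rrm1 and Ccne2 did not pass at P21. Pole had 79.5, 107 and 93.2 in GFP+ nuclei, against 88.2, 83.5 and 135 in GFP- nuclei. Brca2 had 293, 281 and 319 in GFP+ nuclei, against 214, 276 and 259.8 in GFP- nuclei. Pola1 had 270.1, 211 and 292 in GFP+ nuclei, against 175, 296 and 244 in GFP- nuclei. The groups overlapped for Pole and Pola1. For Brca2 each GFP+ library was above each GFP- library, as in 3509 of the 18614 genes tested. Rrm1 had 205, 211 and 187 in GFP+ nuclei, against 114, 174 and 353 in GFP- nuclei. Ccne2 had 143, 136 and 129 in GFP+ nuclei, against 87.2, 147 and 149.9 in GFP- nuclei. Both of these overlapped.

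At P80 fewer of the genes were called. Of the 28 mitotic genes 6 were lower in GFP+ nuclei, where 15.4% of all genes tested were lower, and the median GFP+ mean was 64.8% of the GFP- mean. Anln had 30.1, 39.6, 58.4 and 50.5 in GFP+ nuclei, against 803, 1659, 989.7 and 2893 in GFP- nuclei, a log2 fold change of -4.98 ± 0.38 (adjusted p = 5.92e-09), and the GFP+ mean was 2.82% of the GFP- mean. Smc4 had 33.2, 40.7, 37.3 and 37.4 in GFP+ nuclei, against 127, 224, 130.4 and 288 in GFP- nuclei, a log2 fold change of -2.26 ± 0.32 (adjusted p = 1.41e-05). The condensin gene Ncapg followed with 15.6, 18.2, 16.2 and 17.4 in GFP+ nuclei, against 48.3, 45.9, 28.1 and 39.8 in GFP- nuclei (-1.19 ± 0.27, adjusted p = 0.0019). Mki67 and Top2a were by then lower than at P7 in both populations. Mki67 had 16.6, 14.99, 17.4 and 11.3 in GFP+ nuclei, against 26.1, 51.5, 29.1 and 45.2 in GFP- nuclei, a log2 fold change of -1.24 ± 0.40 (adjusted p = 0.0233). Top2a had 3.12, 3.21, 3.73 and 2.61 in GFP+ nuclei, against 9.14, 22.4, 11.03 and 17.2 in GFP- nuclei (-1.86 ± 0.53, adjusted p = 0.0112), and Kif20b differed by -1.26 ± 0.41 (adjusted p = 0.0236). In each of the 6, and in no other mitotic gene, the groups did not overlap with GFP+ lower. That held for 3183 of the 18614 genes tested. The call of Mki67 was lost without ES7, ES4 or ES8 (adjusted p up to 0.0763) and that of Kif20b without ES3, ES7 or ES4 (adjusted p up to 0.0784), and edgeR did not call Mki67 or Top2a (adjusted p = 0.0724 and 0.0715).

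Cdk1 at P80 had 0, 1.07, 0 and 3.48 in GFP+ nuclei, against 2.61, 1.12, 1.003 and 1.81 in GFP- nuclei, only a few reads in either. Prc1 had 162, 231, 175 and 171 in GFP+ nuclei, against 210.3, 239, 165 and 229.7 in GFP- nuclei, and Smc2 had 140.2, 118, 122 and 123 in GFP+ nuclei, against 151, 153, 120.3 and 117 in GFP- nuclei, and both overlapped. Of the 12 S phase genes Mcm3 alone was lower, where 15.4% of all genes tested were lower. Mcm3 had 0, 3.21, 0 and 3.48 in GFP+ nuclei, against 10.4, 13.4, 4.01 and 42.5 in GFP- nuclei (-2.72 ± 0.68, adjusted p = 0.00397). Ccne1, cyclin E1, was higher in GFP+ nuclei, where 12.6% of all genes tested were higher. It had 50.9, 29.99, 44.8 and 36.6 in GFP+ nuclei, against 20.9, 11.2, 25.1 and 6.33 in GFP- nuclei, a log2 fold change of 1.44 ± 0.37 (adjusted p = 0.00538). The groups did not overlap. None of the following passed at P80. Pole had 81.03, 115, 69.6 and 119 in GFP+ nuclei, against 62.7, 108, 52.1 and 102 in GFP- nuclei. Brca2 had 339.7, 394, 317 and 291 in GFP+ nuclei, against 339.5, 347, 256 and 228 in GFP- nuclei. Both overlapped. Pola1 had 209.9, 255, 276 and 233 in GFP+ nuclei, against 278, 289, 244 and 209.8 in GFP- nuclei. Rrm1 had 166, 195, 196 and 218 in GFP+ nuclei, against 234, 159, 217 and 188 in GFP- nuclei. These overlapped as well. Ccnd2 had 163, 189.6, 201 and 174 in GFP+ nuclei, against 146, 183, 195 and 199 in GFP- nuclei. Ccnd1 had 47.8, 76.04, 53.5 and 54.8 in GFP+ nuclei, against 43.1, 113, 143 and 144 in GFP- nuclei. Ccne2 had 153, 135, 138 and 159 in GFP+ nuclei, against 204, 180.1, 136 and 167 in GFP- nuclei. Cyclin values overlapped in each of the 3.

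Averaged over the 3 ages, 23 of the 28 mitotic genes were lower in GFP+ nuclei, where 25.5% of all genes tested were lower and 22.6% higher. The smallest p-values belonged to Anln (-3.42 ± 0.23, adjusted p = 2.04e-10), Smc4 (-2.10 ± 0.20, adjusted p = 1.50e-08), Ncapg (-1.58 ± 0.16, adjusted p = 6.66e-08), Mki67 (-2.14 ± 0.24, adjusted p = 2.73e-07), Kif20b (-1.93 ± 0.25, adjusted p = 1.27e-06), Top2a (-2.20 ± 0.32, adjusted p = 8.52e-06), Aspm (-1.50 ± 0.23, adjusted p = 1.18e-05) and Kif11 (-1.70 ± 0.26, adjusted p = 1.33e-05). The other 15 lay between -2.004 ± 0.54 for Kif4 and -0.32 ± 0.09 for Prc1. Cdk1, Aurkb and Ccnb1 are among the 23 and passed the filter through GFP- libraries alone, so their calls are not separate support. Of the S phase genes 4 were lower, namely Mcm3 (-2.33 ± 0.41, adjusted p = 6.90e-05), Mcm5 (-1.50 ± 0.33, adjusted p = 0.000657), Mcm6 (-0.95 ± 0.26, adjusted p = 0.00494) and the sliding clamp gene Pcna (-0.72 ± 0.25, adjusted p = 0.0226), the last of which did not pass without ES16 (adjusted p = 0.0547). Ccnd1 was lower (-1.48 ± 0.32, adjusted p = 0.000695) and Ccne1 higher (0.72 ± 0.23, adjusted p = 0.0119).

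**Figure D3:**
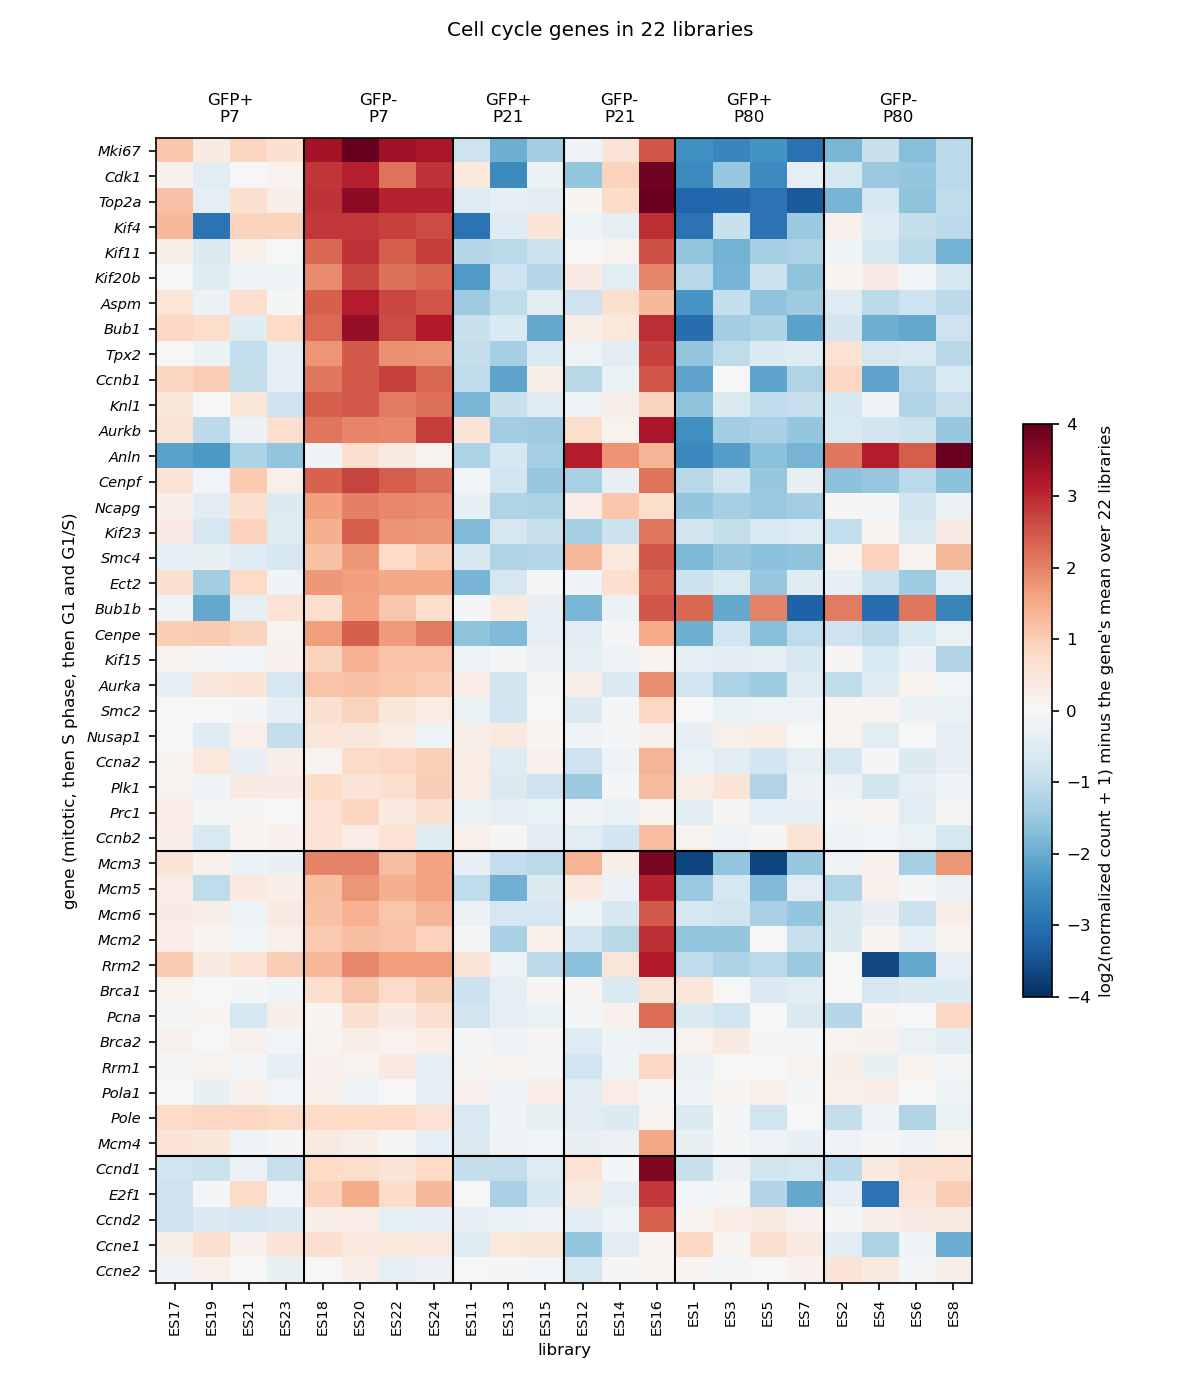
Log2(normalized count + 1) of the 45 genes in the 22 libraries, each gene set against its own mean over all libraries, with colours limited at 4 on either side. GFP- P7 columns are above the gene means in most mitotic rows, the GFP- P21 column ES16 is above them in most rows of every role, and the row of Anln runs the other way with age in GFP- nuclei.

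With age, mitotic genes went down in GFP- nuclei. Between P80 and P7, 21 of the 28 fell, where 8.77% of all genes tested fell, and 1 rose, where 7.56% rose. The median log2 fold change was -2.36, and the median P80 mean was 19.2% of the P7 mean. Mki67 averaged 1203 ± 449 at P7, 257 ± 251 at P21 and 37.97 ± 12.3 at P80 (SD, n = 4, 3 and 4), a P80 over P7 change of -4.94 ± 0.40 (adjusted p = 2.35e-07). Only 3.16% of the P7 mean was left at P80, and the P7 and P80 libraries did not overlap. Top2a averaged 332 ± 74.6, 217 ± 292 and 14.9 ± 6.03 at the same ages (-4.44 ± 0.53, adjusted p = 6.51e-06). Aspm averaged 243 ± 60.1, 55.8 ± 35.5 and 19.7 ± 3.70 (-3.55 ± 0.38, adjusted p = 1.72e-06), and Kif11 166 ± 31.5, 71.7 ± 75.8 and 14.4 ± 7.19 (-3.55 ± 0.43, adjusted p = 6.48e-06). The kinetochore genes Knl1 (-3.004 ± 0.34, adjusted p = 2.75e-06) and Cenpf (-3.89 ± 0.49, adjusted p = 1.21e-05), the kinesin gene Kif15 (-1.63 ± 0.20, adjusted p = 9.09e-06) and Ncapg (-2.12 ± 0.27, adjusted p = 1.24e-05) complete the 8 of smallest p. The other falling genes lay between -4.28 ± 0.58 for Bub1 and -0.71 ± 0.15 for Prc1, and the change of Cdk1 was -3.95 ± 0.81 (adjusted p = 0.00162). Cdk1, Aurkb and Ccnb1 are among the 21 and reached 10 normalized counts only in GFP- libraries of P7 and P21, so their calls are not separate support. Aurka was lost without ES18, ES20, ES2 or ES4 (adjusted p up to 0.0732) and Ccna2 without ES20, ES22, ES24, ES2 or ES6 (adjusted p up to 0.0867).

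Anln moved the other way in GFP- nuclei. It averaged 224 ± 55.1 at P7, 925 ± 629 at P21 and 1586 ± 946 at P80, so that P80 over P7 was 2.67 ± 0.38 (adjusted p = 4.76e-05) and P21 over P7 was 1.87 ± 0.41 (adjusted p = 0.00775). Its highest GFP- values were 2893 in ES8 and 1659 in ES4, both of P80, and 1645 in the P21 library ES12. Summed oligodendrocyte markers were 100045 normalized counts in ES8, 50298 in ES4 and 113808 in ES12, and 26008 to 57491 in the other GFP- libraries. The part of the oligodendrocyte marker level in the Anln values was not tested. Smc4, at 276 ± 80.96, 370.2 ± 263 and 192 ± 78.3, and Smc2, at 212 ± 37.3, 162 ± 83.01 and 135 ± 19.6, did not pass between P80 and P7. The changes were -0.56 ± 0.32 (adjusted p = 0.263) for Smc4 and -0.64 ± 0.22 (adjusted p = 0.0542) for Smc2.

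Between P21 and P7 in GFP- nuclei, 11 of the 28 fell, where 5.07% of all genes tested fell, and Anln rose, where 5.03% rose. Mki67 (-2.61 ± 0.43, adjusted p = 0.00105), Kif15 (-1.26 ± 0.22, adjusted p = 0.0014), Aspm (-2.32 ± 0.41, adjusted p = 0.00158), Knl1 (-1.97 ± 0.36, adjusted p = 0.00214), Prc1 (-0.70 ± 0.16, adjusted p = 0.00878), Cenpf (-2.24 ± 0.53, adjusted p = 0.0122) and Ncapg (-1.17 ± 0.29, adjusted p = 0.0163) had the smallest p, and Cenpe, Kif20b, Kif11 and Kif23 lay between -1.88 ± 0.58 and -1.63 ± 0.41, Kif23 being lost when any 1 of 15 libraries was left out and Kif20b and Kif11 when any 1 of 4 was. ES16 bore on this count: without it 20 of the 28 mitotic genes were called, and without ES12 6 were, when Cenpf and Ncapg did not pass (adjusted p = 0.058 and 0.0577). With only the compared groups in the fit 2 of the 28 were called, beside 115 genes in all. Between P80 and P21, 4 fell, where 1.17% of all genes tested fell: Mki67 (-2.33 ± 0.43, adjusted p = 0.00904), Top2a (-2.86 ± 0.57, adjusted p = 0.0137), Bub1 (-2.61 ± 0.63, adjusted p = 0.0336) and Kif11 (-1.86 ± 0.46, adjusted p = 0.0381). Without ES16, Bub1 and Kif11 did not pass (adjusted p = 0.209 and 0.224) and 2 were called, and without ES12 9 were. Bub1 and Kif11 were also lost without ES4 or ES6, and Kif11 without ES1, ES22 or ES24. With only the P80 and P21 groups in the fit 0 of the 28 were called, beside 1 gene in all. The adjusted p-values were then 0.73 for Mki67 and 0.738 for Top2a, Bub1 and Kif11.

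Of the 12 S phase genes, 5 fell between P80 and P7 in GFP- nuclei, where 8.77% of all genes tested fell, with a median log2 fold change of -1.28. Pole averaged 203 ± 13.7 at P7, 102 ± 28.6 at P21 and 81.4 ± 28.1 at P80, with -1.37 ± 0.22 (adjusted p = 0.000144) for P80 over P7. Its P7 and P80 libraries did not overlap. Brca1 (-1.32 ± 0.26, adjusted p = 0.00114), Rrm2 (-3.14 ± 0.76, adjusted p = 0.00631), Mcm6 (-1.63 ± 0.43, adjusted p = 0.0117) and Mcm5 (-1.83 ± 0.54, adjusted p = 0.0234) also fell, Mcm5 not without ES20, ES24 or ES2 (adjusted p up to 0.0756). Brca2, at 354 ± 20.7, 249.8 ± 32.02 and 292 ± 59.7, Pola1, at 228 ± 39.2, 239 ± 60.5 and 255 ± 35.8, and Rrm1, at 212 ± 42.995, 214 ± 124 and 199 ± 32.9, did not pass between P80 and P7. Between P21 and P7, Pole (-1.01 ± 0.24, adjusted p = 0.0108) and Brca2 (-0.51 ± 0.15, adjusted p = 0.0314) fell, that is 2 of the 12, where 5.07% of all genes tested fell, the call of Brca2 being lost without ES20, ES22, ES24 or ES12 (adjusted p up to 0.105). With only the compared groups in the fit neither passed (adjusted p = 0.0703 for Pole and 0.145 for Brca2). Between P80 and P21 limma called 0 S phase genes, with 3 at an unadjusted p under 0.05, 2 by edgeR and 3 by DESeq2.

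Of the G1 and G1/S genes only Ccne1 fell between P80 and P7 in GFP- nuclei, where 8.77% of all genes tested fell. It averaged 39.7 ± 3.80 at P7, 19.7 ± 10.6 at P21 and 15.9 ± 8.62 at P80, and P80 over P7 was -1.43 ± 0.37 (adjusted p = 0.0102). Ccnd1 averaged 147 ± 14.1, 477 ± 636 and 111 ± 47.4, with the P21 mean carried by ES16. Between P21 and P7 limma called 0 of the 5 (1 unadjusted, 0 by edgeR, 2 by DESeq2), and between P80 and P21 also 0 (2 unadjusted, 1 by edgeR, 1 by DESeq2).

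In GFP+ nuclei some of the mitotic genes also fell with age. Between P80 and P7, 9 of the 28 fell, where 5.91% of all genes tested fell, and the median P80 mean was 44.3% of the P7 mean. This count also depended on the fit, in which 1747 genes were called in all. With only the compared groups in it 14 of the 28 were called, beside 4143 genes in all. Without the GFP- libraries ES8, ES12 and ES16 14 were called, beside 3872 in all. Mki67 averaged 164 ± 37.004 at P7, 37.8 ± 14.7 at P21 and 15.1 ± 2.71 at P80 (SD, n = 4, 3 and 4), with -3.35 ± 0.40 (adjusted p = 9.83e-06) for P80 over P7. Only 9.21% of its P7 mean was left, and the P7 and P80 libraries did not overlap. Top2a averaged 52.3 ± 23.03, 26.5 ± 1.79 and 3.17 ± 0.458 (-3.58 ± 0.53, adjusted p = 0.000146). The kinetochore motor gene Cenpe (-2.14 ± 0.38, adjusted p = 0.000819), Ncapg (-1.41 ± 0.27, adjusted p = 0.00171), Aspm (-1.80 ± 0.38, adjusted p = 0.0034), Bub1 (-2.41 ± 0.58, adjusted p = 0.00998), Smc4 (-1.17 ± 0.32, adjusted p = 0.0236), Kif11 (-1.48 ± 0.43, adjusted p = 0.0314) and Knl1 (-1.07 ± 0.34, adjusted p = 0.0476) fell too. The last 3 of these calls were fragile: Smc4 was lost without ES17, ES19, ES1 or ES5 (adjusted p up to 0.0651), Kif11 without ES17, ES21, ES23, ES1, ES3 or ES5 (adjusted p up to 0.0938), and Knl1, whose P7 and P80 libraries overlapped, when any 1 of 12 libraries was left out.

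Cdk1 averaged 4.84 ± 1.08, 3.61 ± 3.42 and 1.14 ± 1.64 at P7, P21 and P80 in GFP+ nuclei, and its change did not pass (-1.72 ± 0.81, adjusted p = 0.209). Anln, at 54.02 ± 18.7, 87.01 ± 22.4 and 44.7 ± 12.4, did not pass either (-0.25 ± 0.38, adjusted p = 0.76). Prc1 and Smc2 differed by -0.36 ± 0.15 and -0.07 ± 0.22 and did not pass. Between P21 and P7, Mki67 (-2.13 ± 0.43, adjusted p = 0.00931) and Cenpe (-2.003 ± 0.41, adjusted p = 0.01) fell, where 1.46% of all genes tested fell. Mki67 was lost there without ES13 (adjusted p = 0.0689) and Cenpe without ES11 or ES13 (adjusted p up to 0.0741). Between P80 and P21, Top2a fell (-2.73 ± 0.57, adjusted p = 0.046), where 0.242% of all genes tested fell. This call was lost in 16 of the 22 fits that left out a library, and edgeR did not make it (adjusted p = 0.423).

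Of the 12 S phase genes, Pole and Mcm3 fell in GFP+ nuclei between P80 and P7, where 5.91% of all genes tested fell. With only the compared groups in the fit 5 of the 12 were called, beside 4143 genes in all. Pole averaged 213 ± 5.98 at P7, 93.3 ± 13.9 at P21 and 96.1 ± 24.5 at P80, with -1.17 ± 0.22 (adjusted p = 0.00123) for P80 over P7 and -1.19 ± 0.24 (adjusted p = 0.00767) for P21 over P7. The P7 libraries of Pole overlapped between the populations, as given above. In the fit of all groups it was the only S phase gene called in both populations between P80 and P7. The P21 over P7 call was lost without ES11 (adjusted p = 0.0591). Mcm3 averaged 12.3 ± 3.56, 6.52 ± 2.23 and 1.67 ± 1.94 (-2.64 ± 0.68, adjusted p = 0.0148), and was lost without ES1 or ES5 (adjusted p up to 0.0652). Brca2, Pola1 and Rrm1 differed by 0.06 ± 0.13, 0.08 ± 0.17 and 0.03 ± 0.23 and did not pass. Of the G1 and G1/S genes limma called 0 between P80 and P7, with 1 at an unadjusted p under 0.05 and 0 by edgeR and by DESeq2. Ccnd2 averaged 98.7 ± 8.08, 132 ± 8.53 and 182 ± 16.9, all 4 P80 libraries being above all 4 P7 libraries (0.88 ± 0.37, adjusted p = 0.156). Ccne2 averaged 136 ± 20.05, 136 ± 6.86 and 146 ± 11.6.

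The calls of the age comparisons shared members. In the fit of all groups, of the 21 mitotic genes that fell between P80 and P7 in GFP- nuclei and the 9 that fell in GFP+ nuclei, 8 were in both, that is 8 of 21 and 8 of 9, and Smc4 was called in GFP+ nuclei alone. The lists of genes lower in GFP+ at P7 (22) and of genes that fell in GFP- nuclei (21) had 19 in common, but both use the GFP- P7 libraries and are given only as counts.

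Whether the population difference changed with age was tested directly. Between P80 and P7 it changed for 3 of the 28 mitotic genes, where 2.07% of all genes tested changed in either direction. For Anln the difference widened, with a change of -2.92 ± 0.53 (adjusted p = 0.00626). For Knl1 (1.94 ± 0.47, adjusted p = 0.0322) and Kif15 (1.17 ± 0.29, adjusted p = 0.0331) it narrowed, since the fall in GFP- nuclei was larger than that in GFP+ nuclei. Each of these was lost when any 1 of 10 libraries was left out, ES20 among them (adjusted p = 0.07 and 0.0789), and without ES16 8 mitotic genes were called. For Mki67 the change was 1.59 ± 0.56 (adjusted p = 0.194), so a larger fall in GFP- nuclei was not shown for it. Of the 12 S phase genes limma called 0 (1 unadjusted, 0 by edgeR, 1 by DESeq2), and of the 5 G1 and G1/S genes 0 (1 unadjusted, 0 by both other tools). Between P21 and P7 limma called 0 of the 45, where 0.0107% of all genes tested were called, with 2 mitotic genes at an unadjusted p under 0.05 and 0 by edgeR and by DESeq2.

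**Figure D4:**
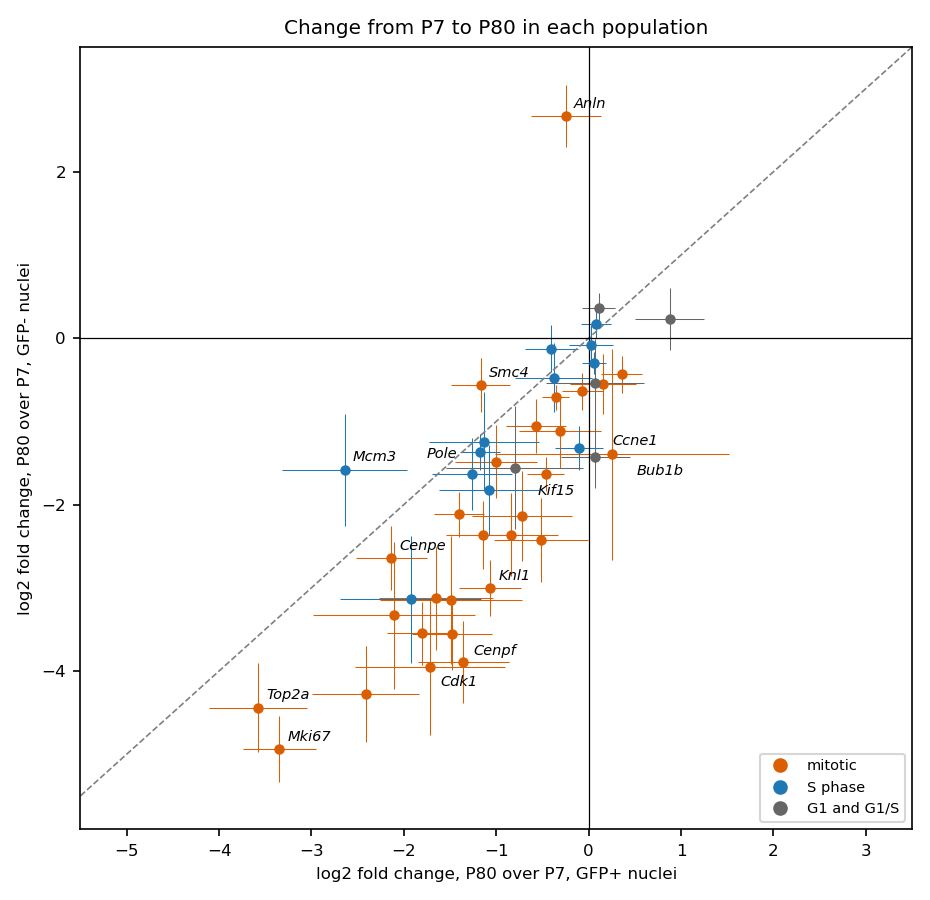
Log2 fold change of P80 over P7 in GFP+ nuclei (horizontal) and in GFP- nuclei (vertical) for the 45 genes, with standard errors and a dashed line where both would be equal. Most mitotic points lie in the lower left and below the line, Mki67 and Top2a lowest, and Anln stands alone near the top at 2.67 in GFP- nuclei.

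Other genes of the cycle, from lists by role, are counted next, and where a single direction is given no gene passed in the other. Of 54 other mitotic genes tested, 30 were lower in GFP+ nuclei at P7, where 10.1% of all genes tested were lower. Spag5, a spindle gene, differed by -2.34 ± 0.19 (adjusted p = 3.26e-08) and Cdca2, a chromatin phosphatase subunit, by -2.52 ± 0.42 (adjusted p = 0.000221). At P21, 19 were lower and 1 higher, where 18.3% of all genes were lower and 14.7% higher, with Kif18a by -2.17 ± 0.36 (adjusted p = 0.000103) and Depdc1b by -2.82 ± 0.49 (adjusted p = 0.000171). At P80, 5 were lower, among them Depdc1b (-4.49 ± 0.42, adjusted p = 5.43e-08), and 2 higher, among them Racgap1 (1.08 ± 0.26, adjusted p = 0.00321), where 15.4% of all genes were lower and 12.6% higher. Of 42 other S phase genes, 10 were lower at P7 (against 10.1% of all genes), with the repressor E2f8 at -2.73 ± 0.39 (adjusted p = 4.28e-05) and Dbf4, a kinase activator, at -1.24 ± 0.24 (adjusted p = 0.000947). At P21, 10 were lower and 1 higher (against 18.3% and 14.7% of all genes), with E2f8 at -2.79 ± 0.45 (adjusted p = 8.07e-05) and the chromatin assembly gene Chaf1b at -3.71 ± 0.67 (adjusted p = 0.000275). At P80, 2 were lower, E2f7 (-2.34 ± 0.29, adjusted p = 1.91e-06) and E2f8 (-2.24 ± 0.39, adjusted p = 0.000123), and 2 higher (against 15.4% and 12.6% of all genes). Of 20 inhibitors, pocket proteins and G1 kinases, 5 were lower at P7 (against 10.1% of all genes), with Cdk6 at -1.91 ± 0.35 (adjusted p = 0.000539) and Cdk2 at -2.22 ± 0.46 (adjusted p = 0.00156). At P21, 10 were lower (against 18.3% of all genes), with Cdk6 at -2.79 ± 0.40 (adjusted p = 2.82e-05) and the inhibitor Cdkn1b at -1.74 ± 0.32 (adjusted p = 0.00034). At P80, 8 were lower (against 15.4% of all genes), with Cdk2 at -2.85 ± 0.46 (adjusted p = 5.27e-05) and Cdk6 at -2.09 ± 0.35 (adjusted p = 8.84e-05).

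Over age in GFP- nuclei, 36 of the 54 other mitotic genes fell and 1 rose between P80 and P7, where 8.77% of all genes tested fell and 7.56% rose, with Cdca2 at -3.49 ± 0.42 (adjusted p = 6.35e-06) and Troap at -4.58 ± 0.64 (adjusted p = 3.12e-05). Of the 42 other S phase genes 17 fell (against 8.77% of all genes), with E2f8 at -3.44 ± 0.39 (adjusted p = 3.02e-06) and the crosslink repair gene Fancd2 at -2.70 ± 0.30 (adjusted p = 3.09e-06). Of the 20 inhibitors, pocket proteins and G1 kinases 2 fell, Cdk4 (-0.95 ± 0.23, adjusted p = 0.00526) and Rbl1 (-1.13 ± 0.27, adjusted p = 0.00535), and 1 rose (against 8.77% and 7.56% of all genes). In GFP+ nuclei, 8 of the 54 other mitotic genes fell and 1 rose between P80 and P7, where 5.91% of all genes tested fell and 3.48% rose, Spag5 rising (2.35 ± 0.19, adjusted p = 6.23e-08) and Depdc1b falling (-3.56 ± 0.42, adjusted p = 8.46e-06). Of the 42 other S phase genes 8 fell (against 5.91% of all genes), with E2f7 at -2.29 ± 0.29 (adjusted p = 1.76e-05) and E2f8 at -2.96 ± 0.39 (adjusted p = 2.82e-05), and of the 20 genes of the third list 3 fell, with the inhibitor Cdkn1c at -2.07 ± 0.37 (adjusted p = 0.000923) and Cdk2 at -1.81 ± 0.46 (adjusted p = 0.0134). Spag5 was the 1 gene of its list that rose in GFP+ nuclei, and its population difference also changed between P80 and P7 (2.68 ± 0.27, adjusted p = 2.38e-05).

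In bulk samples, fewer cells of a type and less RNA per cell cannot be told apart, so the levels of cell type markers are given beside these results. The summed mitotic genes were at 1261 to 1669 at P7, 941 to 1039 at P21 and 822 to 885 at P80 in GFP+ libraries, against 4229.7 to 6419, 2035 to 4799 and 1939 to 4008 in GFP- libraries. The summed S phase genes were 1184 to 1365, 1014 to 1132 and 1015 to 1172 in GFP+ libraries, against 1433 to 1616, 868 to 2379 and 984.7 to 1154 in GFP- libraries. The mitotic sums stayed apart between the populations at every age, and the S phase sums overlapped at P21 and P80. Anln alone made up much of the GFP- mitotic sum at P80, for instance 2893 of 4008 in ES8.

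Oligodendrocyte precursor markers (8 of 8) were lower in GFP+ nuclei at each age. Their sums were 859 to 1074 at P7, 355 to 430.4 at P21 and 79.2 to 142 at P80 in GFP+ libraries, against 4941 to 8176, 2695 to 7309.7 and 1379 to 4157 in GFP- libraries. Between P80 and P7 all 8 fell in GFP+ nuclei and 5 of 8 in GFP- nuclei. The defining markers were at 0 in no group: Pdgfra differed between P80 and P7 by -2.87 ± 0.31 (adjusted p = 3.86e-06) in GFP+ nuclei and by -1.60 ± 0.31 (adjusted p = 0.00114) in GFP- nuclei. These markers moved in the same direction as the mitotic genes in both populations, and so did astrocyte markers. Between P80 and P7, 7 of 8 astrocyte markers fell in GFP+ and 5 of 8 in GFP- nuclei. Of 8 endothelial and mural markers 3 and 2 fell. Of 8 oligodendrocyte markers 7 fell in GFP+ nuclei, and 0 fell and 1 rose in GFP- nuclei. Among GFP- P21 libraries, ES16 had the highest mitotic sum (4799) with the lowest precursor sum (2695). ES12 had a mitotic sum of 2874 and the highest precursor sum (7310), and also the highest oligodendrocyte sum (113808). The precursor list holds Olig1, Olig2 and Sox10 beside Pdgfra and Cspg4. Its sum was not tested apart from the oligodendrocyte sum. The part of any of these cell types in the mitotic values was not tested.

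Markers of other cell types differed as well. Astrocyte and oligodendrocyte markers were lower in 8 of 8 each at each age, with astrocyte sums of 4593 to 6363, 3156 to 3647 and 2000.4 to 2573 in GFP+ libraries, against 12377 to 19089.7, 9735 to 23188 and 7418 to 10289.8 in GFP- libraries. Oligodendrocyte sums were 7823 to 10409, 8803 to 10536 and 1984 to 2717 in GFP+ libraries, against 28310.1 to 41172, 31824 to 113808 and 26008 to 100045 in GFP- libraries. Of 8 microglia markers 4, 7 and 7 were lower in GFP+ nuclei at P7, P21 and P80, with sums of 240.4 to 284, 214 to 312 and 203 to 253 in GFP+ libraries (C1qa at 0 in all of P80), against 595 to 966, 647 to 2408 and 483 to 1953 in GFP- libraries. Of 8 endothelial and mural markers 5, 7 and 6 were lower, with sums of 215 to 246, 123 to 163 and 116 to 154 in GFP+ libraries, against 657 to 878, 492 to 4894 and 283 to 769 in GFP- libraries. Neuron markers were higher in GFP+ nuclei in 4, 8 and 7 of 8, with sums of 14619.7 to 16902, 16312 to 17351 and 16991 to 18231 in GFP+ libraries, against 11343 to 12643, 6639 to 11461 and 6161 to 13775 in GFP- libraries. Of 4 meningeal fibroblast markers 1, 2 and 3 were lower in GFP+ nuclei at P7, P21 and P80. Their sums were 169 to 333, 133 to 188 and 43.5 to 127 in GFP+ libraries, against 334 to 1222, 319 to 3603 and 313 to 593 in GFP- libraries, ES16 being the highest of P21. Of 5 ependymal markers limma called 0 at each single age, with median log2 fold changes of 1.60 at P7, -0.12 at P21 and 1.001 at P80, and 1, Rsph1, was higher in GFP+ nuclei over the 3 ages. An unadjusted p under 0.05 was reached by 3 of them at P7, 0 at P21 and 1 at P80, edgeR called 0 at each age, and DESeq2 called 2 at P7 and 0 at the other ages. Their sums were 18.2 to 184, 49.3 to 87.4 and 44.8 to 95.7 in GFP+ libraries, against 11.1 to 29.04, 26.7 to 633 and 28.1 to 66.9 in GFP- libraries, so that the groups overlapped at each age. No fibroblast or ependymal marker was at 0 in all libraries of a group. The part of these cell types in the cell cycle values was not tested.

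**Figure D5:**
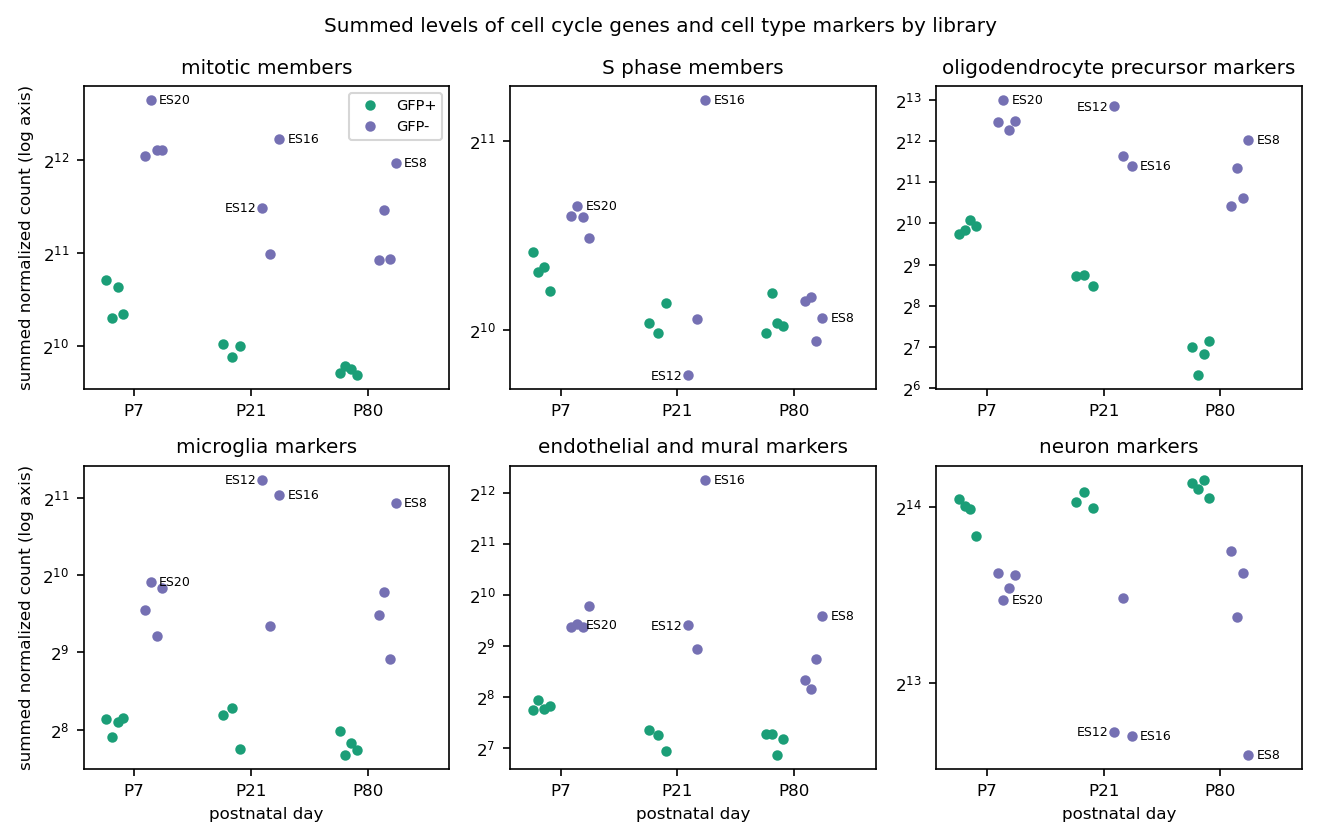
Summed normalized counts (log axis) by library of the 28 mitotic genes, the 12 S phase genes and the markers of oligodendrocyte precursors, microglia, endothelial and mural cells, and neurons, GFP+ left of GFP- at each age. Mitotic and precursor sums step down with age in GFP+ libraries, and ES16 is the highest GFP- P21 library for mitotic and S phase genes and for vessel markers.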

How the data were processed

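Nuclear RNA of 22 samples was amplified for 15 cycles and sequenced, per the labels' protocols. Per the submitters' processing notes, STAR, HTSeq, Trim Galore with cutadapt, and DESeq2 were used. Their versions, the genome build and the annotation were not given in these sources. The deposited values are a signal per gene, which the authors made by dividing counts by 1 size factor per library, since dividing by the smallest step gave whole reads for 100% of values (tolerance 0.01). Columns were mapped to age and population by the names of the deposited sheets. The tests took log2(value + 1) and used limma 3.58.1 (R 4.3.3, trend and robust) with 6 group means over all 22 libraries, two-sided, Benjamini-Hochberg over the 18614 genes that reached 10 in 3 or more libraries, threshold 0.05. The animal shared by a GFP+ and a GFP- library is not in the model, and p-values measure the spread between these libraries. Alternatives were edgeR 4.0.16 (quasi-likelihood) and DESeq2 1.42.0 on the recovered reads, TMM scaling, pseudocounts of 0.5 and 5, other filters, fits of only the compared groups, and leaving out libraries. The model was tested on simulated data.

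The 45 genes, their roles and the other lists were chosen with earlier results of these data known. Named with values in every library were Mki67, Top2a, Cdk1 and the genes of highest mean per role (5 mitotic, 4 S phase, 2 G1 and G1/S). Named in each comparison were the 8 mitotic, 4 S phase and 2 G1 and G1/S genes of smallest p among those called, and 2 of each other list. Library values of Kif11, Kif15, Knl1, Ncapg, Aspm, Brca1, Mcm3, Mcm6, Ccnd1 and Ccne1 were added after they were seen. Genes were matched to RefSeq promoters by symbol, and to the GENCODE mouse annotation by identifier for overlaps and by name for pseudogenes.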

Additional observations from a re-analysis of the deposited data

Results flagged for a closer look

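In 7 of the 180 groups of 4 libraries examined among the 45 genes (3.89%), a library stood far from the other 3, and chance gives about 1 in 20. In GFP- P7 nuclei, ES20 had 1874 normalized counts of Mki67, the other three being at 936.2 to 1017, and 117.8 of Tpx2, the others being at 73.02 to 74.91. ES20 also had the highest sums of oligodendrocyte precursor, oligodendrocyte, astrocyte and microglia markers of its group, and the part of these in the values was not tested. ES24 had 182.3 of Pole in the same group, the others being at 207.0 to 211.7, and ES18 had 45.29 of Ccne1, the others being at 37.11 to 38.44. In GFP+ P7 nuclei, ES21 had 4.903 of Bub1, the others being at 12.35 to 13.63, and ES19 had 9.055 of Mcm5, the others being at 23.43 to 25.74. In GFP- P80 nuclei, ES2 had 52.24 of Brca1, the others being at 32.44 to 35.27.

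Age changed differently in GFP+ and GFP- nuclei, by the test of that difference, for Anln (log2 change of the population difference between P80 and P7 of -2.919), Knl1 (1.938) and Kif15 (1.167). The tests and the libraries they rest on are given above.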

How the results depend on the processing

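No paired analysis was possible because the deposited columns carry no replicate number, animal or sex, so a GFP+ library could not be set beside the GFP- library of its animal. All called fold changes of the 45 genes (141 over the 12 comparisons) kept their direction under every alternative in which they had a value. Scaling by TMM, a pseudocount of 0.5 and no filter on low values left all 36 counts of calls within 1.5 times, and ended 1, 2 and 1 of the 141 calls. A pseudocount of 5 ended 4, edgeR 9, DESeq2 3 of 135 with an adjusted p, the fit of only the compared groups 30, leaving out ES8, ES12 and ES16 together 20, and leaving out each library in turn 194 of 3102. TMM scaling moved the median fold change of all genes by less than 0.1 in each comparison. The counts that moved by over 1.5 times follow, beside 3203, 6128, 5214 and 8967 genes called in all for GFP+ against GFP- at P7, P21, P80 and over ages. In GFP- nuclei 1879, 363 and 3041 were called for P21 against P7, P80 against P21 and P80 against P7, in GFP+ nuclei 433, 45 and 1747, and 386 and 2 for the population difference between P80 and P7 and between P21 and P7. With a pseudocount of 5, the counts were 2 S phase genes for GFP+ against GFP- at P7, 21 genes in all and 0 mitotic genes for P80 against P21 in GFP+, and 1 S phase gene for P80 against P7 in GFP+. The same setting gave 5 mitotic genes for the population difference between P80 and P7, and 8 genes in all for the population difference between P21 and P7. With a value of 10 required in 11 libraries, the counts were 7 genes in all for the population difference between P21 and P7. edgeR on the recovered reads called 6 S phase genes for GFP+ against GFP- at P21, 3160 genes in all for P21 against P7 in GFP-, and 1334 genes in all, 10 mitotic genes and 2 S phase genes for P80 against P21 in GFP-. edgeR also called 5 genes in all and 0 mitotic genes for P80 against P21 in GFP+, and 1 S phase gene for P80 against P7 in GFP+. DESeq2 on the recovered reads called 2 S phase genes for GFP+ against GFP- at P7, 5 S phase genes for GFP+ against GFP- at P21, and 3688 genes in all for P21 against P7 in GFP-. DESeq2 also called 1997 genes in all, 12 mitotic genes and 3 S phase genes for P80 against P21 in GFP-, 715 genes in all for P21 against P7 in GFP+, and 78 genes in all for P80 against P21 in GFP+. DESeq2 also called 666 genes in all, 5 mitotic genes and 1 S phase gene for the population difference between P80 and P7, and 149 genes in all for the population difference between P21 and P7. With only the compared groups in the fit, the counts were 5154 genes in all and 6 S phase genes for GFP+ against GFP- at P7, 2729 genes in all, 4 mitotic genes and 0 S phase genes for GFP+ against GFP- at P21, and 115 genes in all, 2 mitotic genes and 0 S phase genes for P21 against P7 in GFP-. The same setting gave 1 gene in all and 0 mitotic genes for P80 against P21 in GFP-, 1514 genes in all and 4 mitotic genes for P21 against P7 in GFP+, and 401 genes in all and 3 mitotic genes for P80 against P21 in GFP+. The same setting gave 4143 genes in all, 14 mitotic genes and 5 S phase genes for P80 against P7 in GFP+, 588 genes in all, 8 mitotic genes and 1 S phase gene for the population difference between P80 and P7, and 4 genes in all for the population difference between P21 and P7. Without the GFP- libraries ES8, ES12 and ES16, which were low in neuron markers, the counts were 5618 genes in all and 5 S phase genes for GFP+ against GFP- at P7, 2887 genes in all, 5 mitotic genes and 0 S phase genes for GFP+ against GFP- at P21, and 811 genes in all and 4 S phase genes for P21 against P7 in GFP-. The same setting gave 72 genes in all and 2 mitotic genes for P80 against P21 in GFP-, 4601 genes in all for P80 against P7 in GFP-, and 1729 genes in all and 8 mitotic genes for P21 against P7 in GFP+. The same setting gave 219 genes in all and 2 mitotic genes for P80 against P21 in GFP+, 3872 genes in all, 14 mitotic genes and 5 S phase genes for P80 against P7 in GFP+, and 760 genes in all, 8 mitotic genes and 1 S phase gene for the population difference between P80 and P7. The same setting gave 32 genes in all for the population difference between P21 and P7. Leaving out each of the 22 libraries in turn, the counts ranged over 2244 to 4138 genes in all, 14 to 23 mitotic genes and 0 to 4 S phase genes for GFP+ against GFP- at P7, 4828 to 7335 genes in all, 7 to 18 mitotic genes and 0 to 5 S phase genes for GFP+ against GFP- at P21, and 3888 to 6171 genes in all, 4 to 6 mitotic genes and 1 to 2 S phase genes for GFP+ against GFP- at P80. The ranges were 8459 to 9405 genes in all, 20 to 23 mitotic genes and 3 to 6 S phase genes for GFP+ against GFP- over ages, 981 to 3883 genes in all, 6 to 20 mitotic genes and 1 to 5 S phase genes for P21 against P7 in GFP-, and 180 to 2640 genes in all, 2 to 9 mitotic genes and 0 to 3 S phase genes for P80 against P21 in GFP-. They were 2274 to 4044 genes in all, 20 to 24 mitotic genes and 4 to 6 S phase genes for P80 against P7 in GFP-, 188 to 802 genes in all, 0 to 2 mitotic genes and 0 to 1 S phase genes for P21 against P7 in GFP+, and 3 to 84 genes in all, 0 to 1 mitotic genes and 0 S phase genes for P80 against P21 in GFP+. They came to 1085 to 2618 genes in all, 6 to 12 mitotic genes and 1 to 5 S phase genes for P80 against P7 in GFP+, 227 to 623 genes in all, 1 to 8 mitotic genes and 0 S phase genes for the population difference between P80 and P7, and 1 to 166 genes in all, 0 mitotic genes and 0 S phase genes for the population difference between P21 and P7. The causes were not tested, other than that the fits of only the compared groups hold fewer libraries. Depth limits the low genes: 1 read was worth 0.547 to 1.31 normalized counts, so values of Cdk1, Aurkb and Ccnb1 in GFP+ nuclei rest on a few reads.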

Other observations

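Bub1b, a checkpoint kinase gene, was split at P80 in both populations. In GFP+ nuclei it had 85.2 normalized counts in ES1, 68.4 in ES5, 3.21 in ES3 and 0.870 in ES7, and in GFP- nuclei it had 73.1 in ES2, 76.2 in ES6, 1.12 in ES4 and 1.81 in ES8. By a rule set after these values were seen (both high libraries at 20 or more, and the lower of them at least 10 times the higher of the low ones, in both populations), 1 gene of the table was split in this way, Bub1b itself. The deposited columns are not tied to animals or sexes, so what the high libraries share was not tested.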
